A study of Rattus norvegicus with 49 samples.

Results

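Expression of 10 genes of the glucocorticoid response and of hepatic glucose production was followed across dose in male and female rat livers: Fkbp5, Sgk1, Tsc22d3, Nr3c1, Hsd11b1, Serpina6, Tat, Tdo2, Pck1 and Igfbp1. Fkbp5 and Sgk1 were chosen by their change in male livers at 0.12 mg/kg furan, and the other genes were grouped with them by function. That choice rested on the 5 control males as well as on the treated rats. The values of Fkbp5 and Sgk1 in every comparison that uses the control males are therefore given as a description, with no test, and calls there are counted over the other 8 genes. The genes were 10 of the 15154 gene symbols that could be named on the array and 10 of the 9852 symbols tested. They were read by 11 probes, of which Nr3c1 had 2. The brightest probe of each gene was above background in the liver channel on all 48 arrays used, and no member probe was saturated, so no member entered the tests through a single group.

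Fischer F344 rats of both sexes, 7 to 8 weeks old at the start, received furan in corn oil by oral gavage on 5 days per week for 90 days. The doses were 0.03, 0.12, 0.5 and 2 mg/kg, beside a group at 0 mg/kg. The 0 mg/kg groups received the vehicle and served as controls of their own sex. Each array compared the Cy5-labelled liver RNA of 1 rat with a Cy3-labelled universal rat reference made from mixed tissues, with no dye swaps, and each group held 5 rats except males at 0.03 mg/kg, with 4 deposited and 3 used. Furan is a volatile compound formed in heated food that liver cytochrome P450 turns into a reactive dialdehyde.

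The levels below are log2 ratios of liver over reference signal, and a log2 change is the difference between groups fitted with limma after allowing for the 8 slides. A gene was called at an adjusted p of at most 0.05 (Benjamini-Hochberg over 17661 probes) and a change of at least 1.5-fold. Slides with controls numbered 6, and 10 treated arrays lay on 2 slides with no control. The share of spots above background ranged from 37.9 to 71.1% in the liver channel and from 67.7 to 84.3% in the reference channel over the 48 arrays, and an array from the male 0.03 mg/kg group at 5.06 and 9.83% was left out. All 5 hepatocyte markers were above background on 48 of 48 arrays, and the lowest log2 ratio of Alb was 7.10.

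Corticosterone, the main glucocorticoid of the rat, enters hepatocytes and binds the receptor encoded by Nr3c1, which is held ready by the chaperone Hsp90 and then moves to the nucleus to switch genes on or off. Serpina6 encodes the globulin that carries the hormone in blood, and Hsd11b1 the enzyme that regenerates active corticosterone from its inert keto form inside the cell. Fkbp5, Sgk1 and Tsc22d3 are widely used readouts of receptor activity. Tat and Tdo2 break down amino acids, Pck1 commits carbon to new glucose, and Igfbp1 is raised by fasting and by glucocorticoids and lowered by insulin.

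The 250 bases before the annotated start (RefSeq, GRCr8) were searched on both strands for short motifs tied to the receptor, insulin and cyclic AMP and for the TATA box. Windows were found for 8 of the 10 genes, 13 windows in all, and none for Hsd11b1 or Serpina6. The letters TGTTCT, an arm of the palindrome that the receptor binds, occurred in 17.52% of 33469 windows and in 0 of the 13. CAAAACA, the core of the insulin response element that forkhead factors bind, occurred in 5.456% of windows and in those of Igfbp1 and Sgk1. TGACG, part of the cyclic AMP response element, occurred in 18.22% of windows and in those of Pck1 and Tsc22d3. TATAAA, the TATA box, occurred in 12.93% of windows and in those of Sgk1, Tdo2 and Tsc22d3. These are matches of letters, not measured binding. Only the exact letters were searched, and sites outside the 250 bases were not. The 0 of 13 therefore says nothing about receptor sites farther away, or about sites within the windows that differ from these letters. The windows of the genes that changed most are shown, with the insulin response letters (CAAAACA, or its complement TGTTTTG) in capitals. They are Igfbp1 at chr14:86261027-86261276 on the plus strand, Sgk1 at chr1:24805571-24805820 on the minus strand, which is 1 of its 3 annotated starts, and Fkbp5 at chr20:6543556-6543805 on the minus strand, which held none of the letters searched.
Igfbp1: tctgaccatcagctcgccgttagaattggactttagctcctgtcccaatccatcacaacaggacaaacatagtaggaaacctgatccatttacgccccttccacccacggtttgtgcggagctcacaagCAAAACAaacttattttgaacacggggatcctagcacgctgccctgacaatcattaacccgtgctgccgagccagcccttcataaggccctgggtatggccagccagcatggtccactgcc
Sgk1: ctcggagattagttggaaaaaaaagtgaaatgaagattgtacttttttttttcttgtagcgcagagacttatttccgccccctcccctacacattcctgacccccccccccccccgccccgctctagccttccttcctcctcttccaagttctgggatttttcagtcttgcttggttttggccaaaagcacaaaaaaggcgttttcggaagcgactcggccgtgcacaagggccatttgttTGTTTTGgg
Fkbp5: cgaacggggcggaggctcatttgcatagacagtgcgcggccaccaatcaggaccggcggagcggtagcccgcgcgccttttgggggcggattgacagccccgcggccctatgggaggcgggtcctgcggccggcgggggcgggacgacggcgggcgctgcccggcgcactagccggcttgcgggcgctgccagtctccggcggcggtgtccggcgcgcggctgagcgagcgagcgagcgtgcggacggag

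At 2 mg/kg in males, 3 of the 8 genes tested were called, against 5.07% of all probes: Nr3c1, Tat and Igfbp1 were lower. In females at the same dose 2 of 10 were called, against 1.4% of all probes: Hsd11b1 was higher and Igfbp1 lower. Igfbp1 was thus called lower in both sexes. The effect on Hsd11b1 was called different between males and females, a call that held in 8 of 13 alternative fits. The median log2 change was -0.59 over the 8 genes in males and 0.02 over the 10 genes in females at this dose, beside -0.02 and 0.01 over all probes.

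Below 2 mg/kg no tested member was called by limma. In males at 0.5 mg/kg 0 of 8 were called, against 0.362% of all probes, with 2 at an unadjusted p below 0.05, and in alternative fits 0 to 1. In males at 0.03 mg/kg 0 of 8 were called (0% of probes were called), with 1 at an unadjusted p below 0.05, and 0 in the alternative fits. In females 0 members were called at 0.03, 0.12 and 0.5 mg/kg, where 0.017, 0.0113 and 0.0283% of probes were, and 1, 2 and 2 members had an unadjusted p below 0.05. Over the doses together, limma's moderated F test passed an adjusted p of 0.05 for 3 of 8 genes in males (Nr3c1, Tat and Igfbp1, over 0.03, 0.5 and 2 mg/kg; 17.8% of probes passed) and for 1 of 10, Hsd11b1, in females (2.99% of probes). The comparisons of a sex share their control rats.

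**Figure D1:**
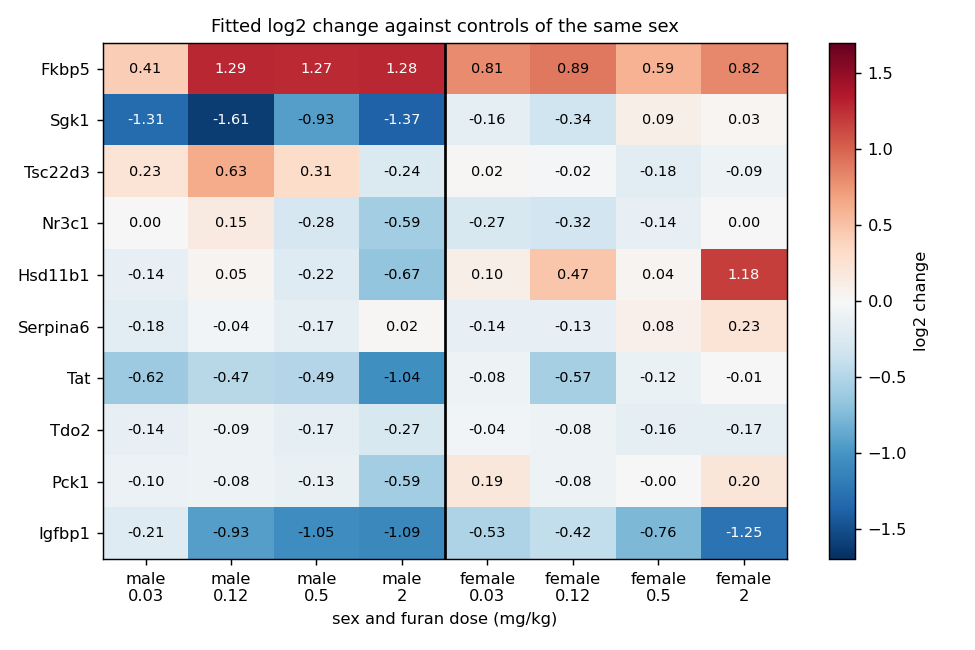
Fitted log2 change of each gene (rows) against controls of the same sex at each furan dose (columns, mg/kg), with males left of the line and females right. Fkbp5 was positive in all 8 columns, and Sgk1 was between -1.61 and -0.93 in males and between -0.34 and 0.09 in females.

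Fkbp5 encodes an Hsp90 co-chaperone that lowers the hormone affinity of the receptor and is itself induced by it. Its log2 ratios in control males were -0.79, -0.72, -0.66, -0.47 and -0.45. At 2 mg/kg they were 0.52, 0.57, 0.63, 0.70 and 1.31, so that all 5 treated rats lay above all 5 controls. This gave a log2 change of 1.28 ± 0.28 (SE, 2.43-fold), given as a description because the control males helped to pick the gene. On the 3 slides that held both groups the difference ran from 1.11 to 1.49.

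At 0.5 mg/kg the Fkbp5 ratios of males were 0.28, 0.30, 0.30, 0.71 and 1.58, again all above the controls. The log2 change of 1.27 ± 0.28 was close to that of 2 mg/kg, and it was 1.03 without treated rat 68, the highest of its group. At 0.03 mg/kg the 3 males used had -0.43, -0.41 and 0.10, each above every control, and a log2 change of 0.41 ± 0.33.

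At 0.12 mg/kg, the dose at which Fkbp5 had been picked, the male ratios were -0.07, 0.37, 0.74, 0.96 and 1.56, with a mean of 0.71 ± 0.61 (SD, n = 5) against -0.62 ± 0.15 in controls. Given only as a description, the log2 change was 1.29 ± 0.27 (SE). From 0.12 to 2 mg/kg the male changes of Fkbp5 thus stood at 1.29, 1.27 and 1.28.

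In females Fkbp5 started lower, with control ratios of -1.51, -1.51, -1.42, -1.40 and -0.97. At 2 mg/kg they were -0.88, -0.67, -0.42, -0.05 and -0.02, all above the controls. The log2 change of 0.82 ± 0.29 missed the threshold (adjusted p = 0.0768). It passed in 4 of 12 alternative fits: with slide as a random block (0.0423), without a slide term (0.0412), with array weights (0.0145) and on the authors' processed values (0.0411). In the other alternatives the adjusted p reached 0.151. It passed in 0 of 10 fits without 1 array (adjusted p from 0.0665 to 0.169). At 0.03, 0.12 and 0.5 mg/kg the log2 changes were 0.81 ± 0.28, 0.89 ± 0.28 and 0.59 ± 0.28 (adjusted p = 0.666, 0.332 and 0.305), and 4, 4 and 3 of 5 rats lay above every control. The effect at 2 mg/kg differed between males and females by 0.46, a description since the control males enter it.

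Ordered by slide-adjusted mean, the Fkbp5 level was highest in males at 0.12, 2 and 0.5 mg/kg (0.70, 0.69 and 0.68) and lowest in control females (-1.33). Of the 9 gaps between neighbouring groups, 2 were larger than the pooled SD of 0.41: the gap of 0.85 below the 3 upper male doses and the gap of 0.59 above control females. The upper groups include the males at 0.12 mg/kg by which Fkbp5 was picked, so nothing is read from the gap of 0.85. Male controls (-0.59) lay among the furan-treated females.

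**Figure D2:**
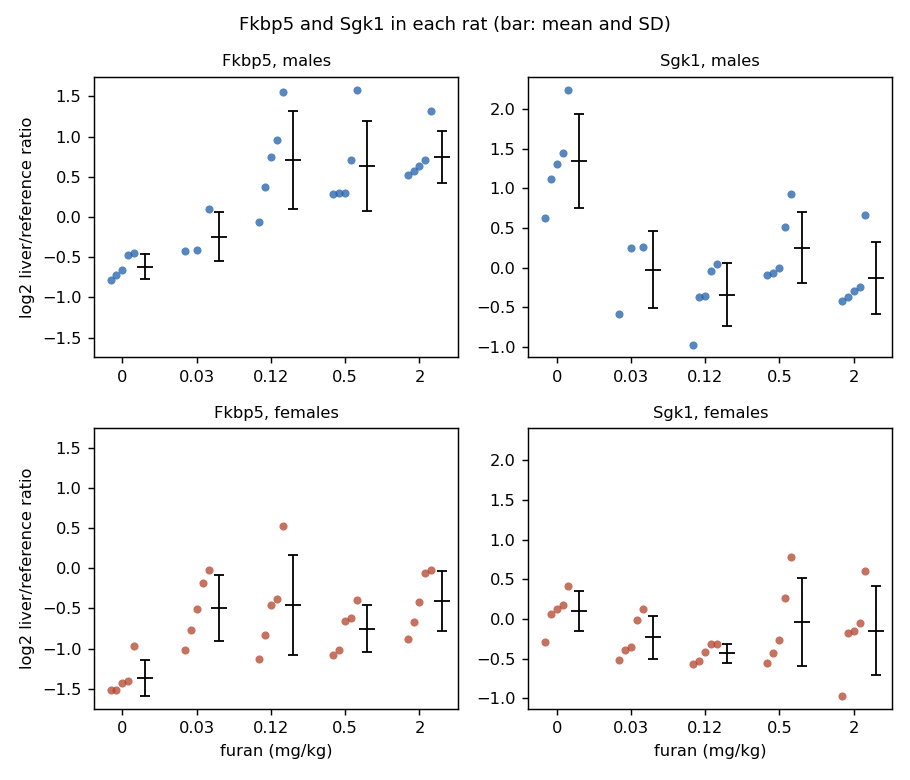
Log2 liver/reference ratio of Fkbp5 (left) and Sgk1 (right) in each rat by furan dose (mg/kg), males above and females below; points are rats and the bar is the mean and SD. Fkbp5 in males at 0.12, 0.5 and 2 mg/kg lay above all controls, and Sgk1 in control males, from 0.62 to 2.24, lay above most other rats of either sex.

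Sgk1 encodes a kinase that glucocorticoids, serum and osmotic stress induce and that restrains the removal of ion channels from the cell surface. In control males its log2 ratios were 0.62, 1.12, 1.31, 1.44 and 2.24. At 2 mg/kg they were -0.42, -0.37, -0.30, -0.24 and 0.67, so that 4 of 5 treated rats lay below every control and rat 84 lay just above the lowest control. The fitted log2 change was -1.37 ± 0.24 (2.59-fold), again a description. On the 3 shared slides the difference ran from -1.87 to -0.92.

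At 0.5 mg/kg the male Sgk1 ratios were -0.10, -0.07, -0.0038, 0.51 and 0.93, and 4 of 5 lay below the controls. The log2 change there was -0.93 ± 0.24. At 0.03 mg/kg the ratios were -0.59, 0.25 and 0.26, all below the controls, with a log2 change of -1.31 ± 0.28. At 0.12 mg/kg, where Sgk1 had been picked, they were -0.97, -0.37, -0.36, -0.04 and 0.05, a mean of -0.34 ± 0.40 (SD, n = 5) against 1.35 ± 0.59 in controls. The log2 change there was -1.61 ± 0.23 (SE), given as a description.

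In females Sgk1 did not pass the test at any dose. The control ratios were -0.29, 0.07, 0.12, 0.17 and 0.42, and those at 2 mg/kg were -0.97, -0.17, -0.15, -0.05 and 0.60, so the groups overlapped. The log2 change at 2 mg/kg was 0.03 ± 0.24 (95% confidence interval -0.46 to 0.53; adjusted p = 0.952). At the lower doses it lay between -0.34 and 0.09, with adjusted p from 0.691 to 0.931. At 0.12 mg/kg all 5 females, from -0.57 to -0.31, lay below the lowest control, by a margin smaller than the spread between rats.

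The male and female effects of 2 mg/kg on Sgk1 differed by -1.40 ± 0.33. This difference contains the control males used to pick the gene and is not tested here. Without male control rat 5 it was -1.21. Of the 8 other genes 1, Hsd11b1, was called for this gender by treatment interaction, against 1.09% of all probes.

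In the order of slide-adjusted means, control males stood at 1.22, and the next group, males at 0.5 mg/kg, at 0.29. Sgk1 was picked by its difference between control males and males at 0.12 mg/kg, the highest and lowest groups. The order and the gap of 0.93 are therefore a description, from which nothing is read. The other 9 groups, males on furan and all females, ran down to -0.39 in steps of at most 0.23.

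Tsc22d3 encodes the leucine zipper protein GILZ, a mediator of the anti-inflammatory action of glucocorticoids. Its ratios in control males were 2.03, 2.04, 2.18, 2.65 and 3.11, and at 2 mg/kg they were 1.34, 1.78, 2.46, 2.50 and 2.76. The groups overlapped and the log2 change was -0.24 ± 0.31 (95% confidence interval -0.86 to 0.38; adjusted p = 0.609). In females at 2 mg/kg the change was -0.09 (adjusted p = 0.893). At 0.12 mg/kg in males the ratios reached 4.17 and the log2 change was 0.63 ± 0.30, a description. None of its 9 gaps between neighbouring groups exceeded the pooled SD of 0.44.

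Nr3c1, the receptor itself, had ratios of 1.09, 1.19, 1.34, 1.42 and 1.89 in control males and of 0.26, 0.41, 0.46, 0.70 and 1.56 at 2 mg/kg, where 4 of 5 rats lay below every control. Nr3c1 fell, with a log2 change of -0.59 ± 0.16 (adjusted p = 0.00712), a fold of 1.51 that only just passed. The dimmer second probe gave -0.32 (adjusted p = 0.0397), under the fold threshold. The call of the brightest probe held in 6 of 12 alternative fits, with an adjusted p of up to 0.19. Leaving out single arrays ended the call in 6 of 10 cases: without control rats 3, 5 and 6 the log2 change was -0.57, -0.47 and -0.58, and without treated rats 81, 84 and 87 it was -0.58, -0.43 and -0.53. On 3 shared slides the difference ranged from -1.43 to 0.14 and was negative on 2. In females at 2 mg/kg the change was 0.00 ± 0.17 (adjusted p = 0.997), and the difference between the sexes, -0.59, had an adjusted p of 0.14.

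Hsd11b1 separated the sexes. Its log2 ratios were 3.58, 4.23, 4.30, 4.36 and 4.48 in control males and -0.39, -0.05, 0.67, 0.69 and 0.73 in control females, with no overlap. The log2 difference, male minus female, was 3.83 ± 0.28 (14.2-fold; 95% confidence interval 3.25 to 4.40; adjusted p = 4.57e-13), and it was positive on each of 4 shared slides, from 3.66 to 4.62.

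At 2 mg/kg the female ratios of Hsd11b1 rose to 1.24, 1.26, 1.33, 1.35 and 1.96, all above the female controls and all below every male. The log2 change in females was 1.18 ± 0.30 (2.26-fold; adjusted p = 0.0197). It was positive on both slides with controls, at 0.53 and 1.38. The call was lost without control rat 9 (log2 change 0.99, adjusted p = 0.051) or 11 (1.04, 0.0558), the controls with the lowest ratios. At the lower doses in females the changes were 0.10, 0.46 and 0.04 (adjusted p = 0.972, 0.661 and 0.968).

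In males at 2 mg/kg the ratios of Hsd11b1 were 2.89, 3.25, 3.48, 3.75 and 3.94, of which 3 lay below all controls. The log2 change of -0.67 ± 0.29 did not pass (adjusted p = 0.0948). The effects in the sexes differed by -1.85 ± 0.41 (95% confidence interval -2.67 to -1.02; adjusted p = 0.0188). This call was lost without male rat 87, the lowest treated male (-1.64, adjusted p = 0.0723). It held in 8 of 13 alternative fits, with differences from -1.97 to -1.65 and an adjusted p of up to 0.474. It was lost without a slide term (adjusted p = 0.0739) and on all 49 arrays with or without that term. With median centring and on the authors' processed values it was lost too. The sex difference between slide-adjusted means thus was 3.83 in controls and 1.98 at 2 mg/kg.

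Serpina6 did not pass in any furan comparison. At 2 mg/kg its log2 change was 0.02 ± 0.14 in males and 0.23 ± 0.15 in females (adjusted p = 0.936 and 0.354). Control ratios were 5.63, 6.44, 6.77, 6.81 and 7.09 in males and 7.01, 7.01, 7.42, 7.42 and 7.45 in females, of which 1 male rat overlapped the females. The difference, male minus female, was -0.59 ± 0.14 (1.51-fold, adjusted p = 0.00176), and it came just under 1.5-fold without male rat 2, 4 or 6 or female rat 4 or 9 (-0.57 to -0.56). The call held in 8 of 13 alternative fits. Across those alternatives the difference ran from -0.94 to -0.22, with an adjusted p of up to 0.678.

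Tat encodes tyrosine aminotransferase, a classic liver target of the receptor. In control males the log2 ratios were 3.40, 4.78, 5.24, 5.30 and 5.49, and at 2 mg/kg they were 2.35, 2.50, 3.70, 3.76 and 4.71. The groups overlapped, with 2 treated rats below every control. The slide-adjusted log2 change was -1.04 ± 0.24 (2.05-fold; adjusted p = 0.00164), and it was negative on 3 of 3 shared slides, from -1.05 to -0.78. Without a slide term the change was -1.44 with an adjusted p of 0.0978.

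In females Tat did not pass. The control ratios ran from 4.70 to 5.46 and those at 2 mg/kg from 2.90 to 5.55. The log2 change was -0.01 ± 0.25 (95% confidence interval -0.51 to 0.50; adjusted p = 0.988). At 0.12 and 0.5 mg/kg all 5 female rats, from 2.49 to 4.66 and from 3.67 to 4.59, lay below all controls, yet after allowing for slide the changes were -0.57 and -0.12 (adjusted p = 0.537 and 0.863). The male and female effects at 2 mg/kg differed by -1.03 (adjusted p = 0.0867).

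Tdo2 encodes tryptophan dioxygenase, another receptor target of hepatocytes. In males its ratios ran from 4.70 to 6.22 in controls and from 4.38 to 5.86 at 2 mg/kg. The log2 change was -0.27 ± 0.09 (adjusted p = 0.0276), under the fold threshold. In females it was -0.17 ± 0.09 (adjusted p = 0.266).

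Tat and Tdo2 moved with the brightness of the arrays. Over the 48 rats, after removing group means but not slide means, the log2 ratio was correlated with the share of liver spots above background. The correlation was 0.83 for Tat and 0.85 for Tdo2. It was 0.53 for Serpina6, 0.47 for Pck1, 0.38 for Sgk1, 0.28 for Nr3c1, 0.10 for Tsc22d3, 0.06 for Hsd11b1, 0.03 for Fkbp5 and -0.08 for Igfbp1. The median share was 65.1% in control males and 56.1% in males at 2 mg/kg, and 64.8 and 51.8% in females. These medians do not allow for slide. On the 3 slides with both male groups it was 65.1, 69.6 and 45.5% in controls and 62.7, 69.4 and 56.1% at 2 mg/kg. On the 2 such slides in females it was 64.0 and 58.0% in controls and 64.3 and 58.3% at 2 mg/kg. The part of this share in the change of Tat was not tested.

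Pck1 encodes phosphoenolpyruvate carboxykinase, the controlled step of gluconeogenesis. Its male ratios were 4.54, 4.91, 5.11, 5.27 and 5.38 in controls and 3.72, 3.99, 4.38, 4.53 and 4.89 at 2 mg/kg, where 4 of 5 lay below every control. The log2 change of -0.59 ± 0.25 did not pass (adjusted p = 0.0778). It passed in 1 of 12 alternative fits, with slide as a random block (0.048), while the adjusted p of the alternatives reached 0.361. It passed in 2 of 10 fits without 1 array, those without treated rat 86 (0.039) and without control rat 5 (0.0465). In females the change was 0.20 ± 0.26 (adjusted p = 0.675).

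Igfbp1 encodes a liver-made protein that binds insulin-like growth factors. In females its log2 ratios were 1.22, 2.03, 2.11, 2.19 and 2.93 in controls and 0.33, 0.70, 0.91, 1.16 and 1.26 at 2 mg/kg, where 4 of 5 lay below every control. Igfbp1 fell, with a log2 change of -1.25 ± 0.30 (2.39-fold; adjusted p = 0.0138). Within the 2 shared slides the difference was -2.02 and 0.04.

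In males the ratios of Igfbp1 were 0.04, 0.11, 0.36, 1.01 and 1.40 in controls and -1.09, -0.66, -0.65, -0.57 and 0.17 at 2 mg/kg, with 4 of 5 below every control. The fitted log2 change was -1.09 ± 0.29 (2.13-fold; adjusted p = 0.00581), and it was negative on 3 of 3 shared slides, from -0.84 to -0.71. At 0.5 mg/kg it was -1.05 ± 0.30 (adjusted p = 0.108). At 0.12 mg/kg, as a description, all 5 males, from -0.73 to -0.04, lay below the lowest control. The effects at 2 mg/kg differed between the sexes by 0.16 (95% confidence interval -0.66 to 0.99; adjusted p = 0.86).

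The female groups of Igfbp1 were ordered as follows. Slide-adjusted means were 2.10 in controls, 1.68 and 1.57 at 0.12 and 0.03 mg/kg, 1.34 at 0.5 mg/kg and 0.85 at 2 mg/kg. Neighbouring groups in this order differed by less than the pooled SD of 0.43, except for the gap of 0.50 between 0.5 and 2 mg/kg. The changes below 2 mg/kg did not pass the test (adjusted p = 0.691, 0.792 and 0.212 at 0.12, 0.03 and 0.5 mg/kg).

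**Figure D3:**
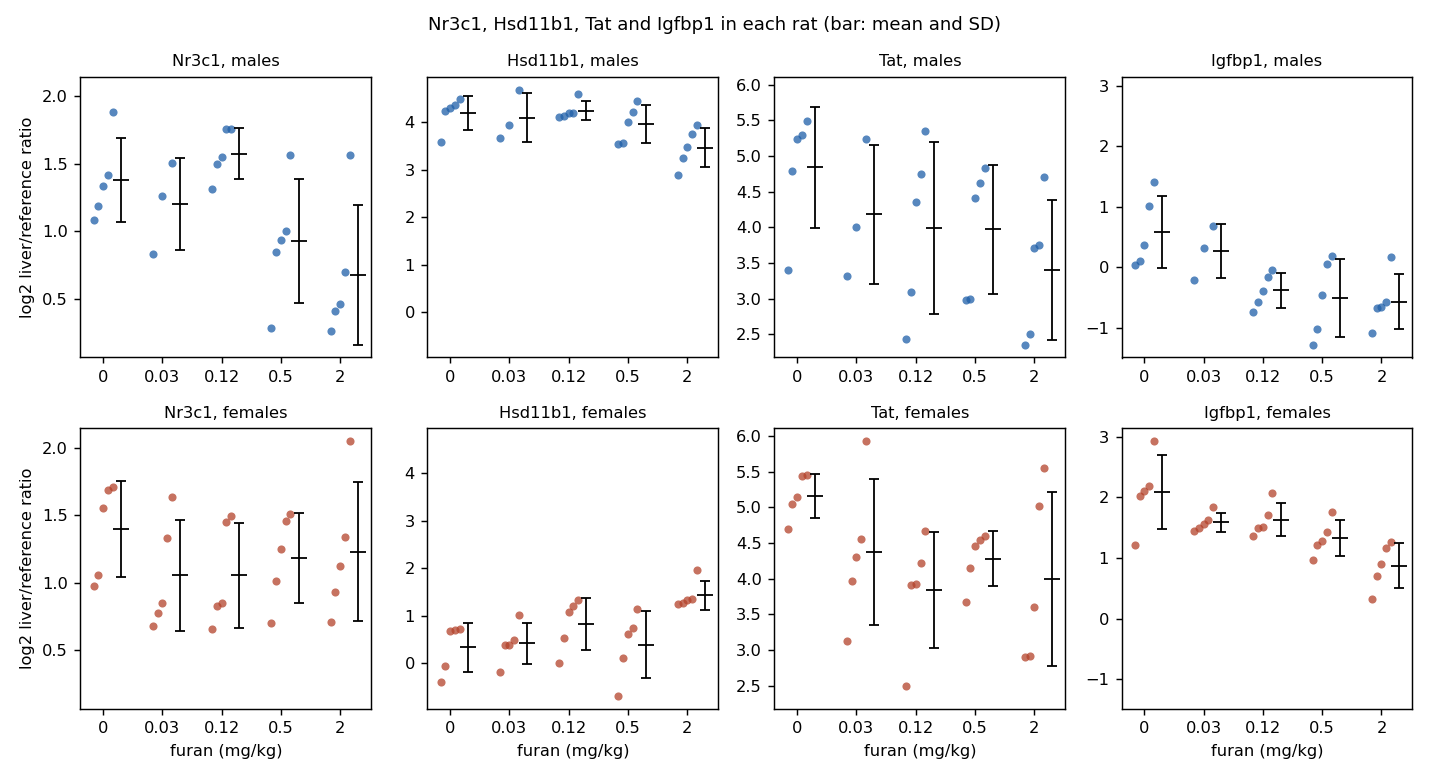
Log2 liver/reference ratio of Nr3c1, Hsd11b1, Tat and Igfbp1 in each rat by furan dose (mg/kg), males above and females below, with the mean and SD as a bar. Hsd11b1 was between 2.89 and 4.68 in all males and between -0.69 and 1.96 in all females, and 4 of 5 rats of each sex at 2 mg/kg lay below every control for Igfbp1.

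The number of members whose groups did not overlap, with the share of all probes for which this held, was 2 of 10 (1.7%) in males at 0.03 mg/kg, 3 (0.459%) at 0.12 mg/kg, 1 (1.02%) at 0.5 mg/kg and 1 (4.26%) at 2 mg/kg. Fkbp5 was among them at every male dose, from which nothing is read because the control males helped to pick it. In females it was 0 (0.374%), 2 (1.41%), 1 (3.15%) and 2 (4%) at the same doses. The same holds for the whole count at 0.12 mg/kg in males.

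Without furan, 4 of the 8 genes tested differed between male and female controls, against 6.42% of all probes: Hsd11b1 and Pck1 were higher in males, and Igfbp1 and Serpina6 in females. Groups did not overlap for 3 of the 10 genes (6.3% of probes), Sgk1 among them. The Sgk1 difference, male minus female, was 1.26 ± 0.23, with every control male above every control female, a description since these males helped to pick the gene. Igfbp1 was lower by 1.56 (log2 difference -1.56 ± 0.29; adjusted p = 9.67e-05), with 4 of 5 males below every female.

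For Fkbp5 the difference was 0.74 ± 0.27, likewise untested. Pck1 was higher in males by 0.70 ± 0.24 (adjusted p = 0.0332), a call that held in 7 of 13 alternative fits (adjusted p up to 0.657). This call was lost in 6 of 10 fits, with an adjusted p of 0.127 without male rat 4, 0.174 without female rat 11, 0.0656 without male rat 2, 0.0596 without male rat 6, 0.054 without female rat 2 and 0.0691 without female rat 9.

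**Figure D4:**
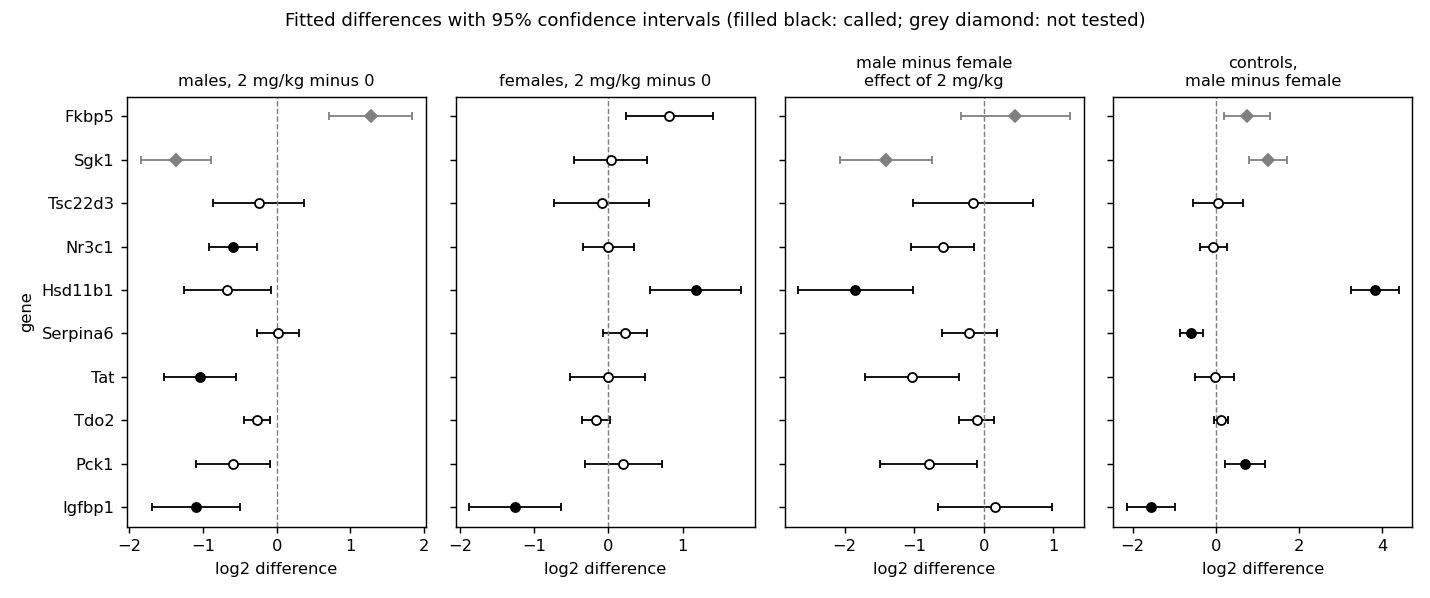
Fitted log2 differences of the 10 genes with 95% confidence intervals: the effect of 2 mg/kg in males and in females, the male effect minus the female effect, and control males minus control females (filled black, called; open, not called; grey diamonds, Fkbp5 and Sgk1 where the control males that helped to pick them enter, not tested). Hsd11b1 was called in the male minus female panel, at -1.85, and Hsd11b1 differed most between controls, by 3.83. The intervals of the grey diamonds do not allow for how the genes were picked.

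Over the 48 rats the members were compared pairwise after group and slide means had been removed, so that a correlation reflects rats of 1 group and not the doses. Of 45 pairs 5 passed a permutation test (100000 resamples within groups, 2-sided, Benjamini-Hochberg over the 45), and all 5 were positive. Rats were shuffled within groups but not within slides, although slide means had been removed. The permutation p-values can therefore be too small, and the passes are given as a description. They were Tdo2 with Serpina6 (Pearson r = 0.53, Spearman rho = 0.51, permutation adjusted p = 0.0135), Fkbp5 with Hsd11b1 (0.45 and 0.51, adjusted p = 0.0238), Fkbp5 with Tdo2 (0.50 and 0.38, adjusted p = 0.0331), Tsc22d3 with Igfbp1 (0.48 and 0.45, adjusted p = 0.0403) and Tsc22d3 with Pck1 (0.45 and 0.43, adjusted p = 0.0403). By rho only 2 of the 5 passed, the first and second named (permutation adjusted p = 0.0148 each), while the others had 0.114, 0.0686 and 0.0686. Without removing slide means 2 of the 5 passed on r, Tdo2 with Serpina6 (0.68, permutation adjusted p = 0.0003) and Tsc22d3 with Pck1 (0.44, 0.0265), and the r of Fkbp5 with Tdo2 was -0.0056. Fkbp5 and Sgk1 were not such a pair. Without the 2 rats farthest from the median, r was 0.45, 0.43, 0.39, 0.38 and 0.41 in the same order, and no pair passed (permutation adjusted p = 0.0785 to 0.165).

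The same residuals were used to name the genes most like Fkbp5 and Sgk1 among 9841 other named genes, as a description. Rats share slides and arrays differ in brightness, so these values carry no test. The highest r with Fkbp5 was that of Retreg1 (0.83), Pigu (0.82), Sdc4 (0.78), Smarcd2 (0.74) and Mtss1 (0.74), and the lowest that of Rcbtb1 (-0.69), Cep70 (-0.66) and Psmc4 (-0.65). For Sgk1 the highest was that of Dmtf1 (0.60), Atp6v1c1 (0.59), C1h11orf24 (0.59), Srf (0.58) and Id2 (0.56), and the lowest that of Glrx (-0.63), Fzd8 (-0.61) and Rnf186 (-0.59).

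Other genes of the same pathways were read from lists chosen with earlier results of these data known. Some genes stand in more than 1 list (Sds, Foxo1, Ppargc1a, Irs2, Pdk4, G6pc1 and Per1), so the counts of the lists are not separate results. Of 23 other glucocorticoid response genes 20 were tested. In males at 2 mg/kg 4 were called higher and 5 lower, where 2.67 and 2.4% of all probes were called higher and lower, and their median log2 change was -0.26. In females at 2 mg/kg 2 were called higher and 2 lower, where 0.583 and 0.821% of probes were, with a median of -0.13.

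Zbtb16, a zinc finger factor that glucocorticoids induce, was called higher in 4 comparisons. Its log2 change was 1.84 ± 0.34 in males at 2 mg/kg (adjusted p = 0.000141), 1.92 ± 0.34 in males at 0.5 mg/kg (0.00418), 1.66 ± 0.35 in females at 2 mg/kg (0.00528) and 1.80 ± 0.34 in females at 0.03 mg/kg (0.0354). In females at 0.12 and 0.5 mg/kg it was 1.40 and 1.09 (adjusted p = 0.179 and 0.118). In males at 0.12 mg/kg it was 2.14, a description.

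Dusp1, a phosphatase of mitogen-activated kinases that glucocorticoids induce, moved the other way. Its log2 change was -1.40 in males at 2 mg/kg (adjusted p = 0.000261), -1.37 at 0.5 mg/kg (0.0135) and -0.82 in females at 2 mg/kg (0.073). The metallothioneins Mt1 and Mt2A, which metals and glucocorticoids induce, rose in males at 2 mg/kg by 2.28 and 3.13 (adjusted p = 0.000301 and 0.000361) and had changes of -0.25 and -0.12 in females. Their effects differed between the sexes by 2.52 and 3.25 (adjusted p = 0.0347 and 0.0444), and in controls they were lower in males, at -2.85 and -2.71 (adjusted p = 5.91e-06 and 0.0012). Mt1 was also called higher in males at 0.5 mg/kg, by 1.98 (adjusted p = 0.0331). In females at 2 mg/kg Lpin1, a lipid phosphatase, rose by 1.28 (0.0401), and Irs2, an adaptor of the insulin receptor, fell by 0.94 (0.00115). Bcl6, a repressor, and Pdk4, which spares glucose, differed between controls by 1.37 (higher in males, adjusted p = 0.0299) and -0.74 (0.00284). Of the 20 genes, 3 were called in males at 0.5 mg/kg (0.362% of probes), 1 in females at 0.03 mg/kg (0.017%), 4 between controls (6.42%) and 2 for the interaction (1.09%).

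**Figure D5:**
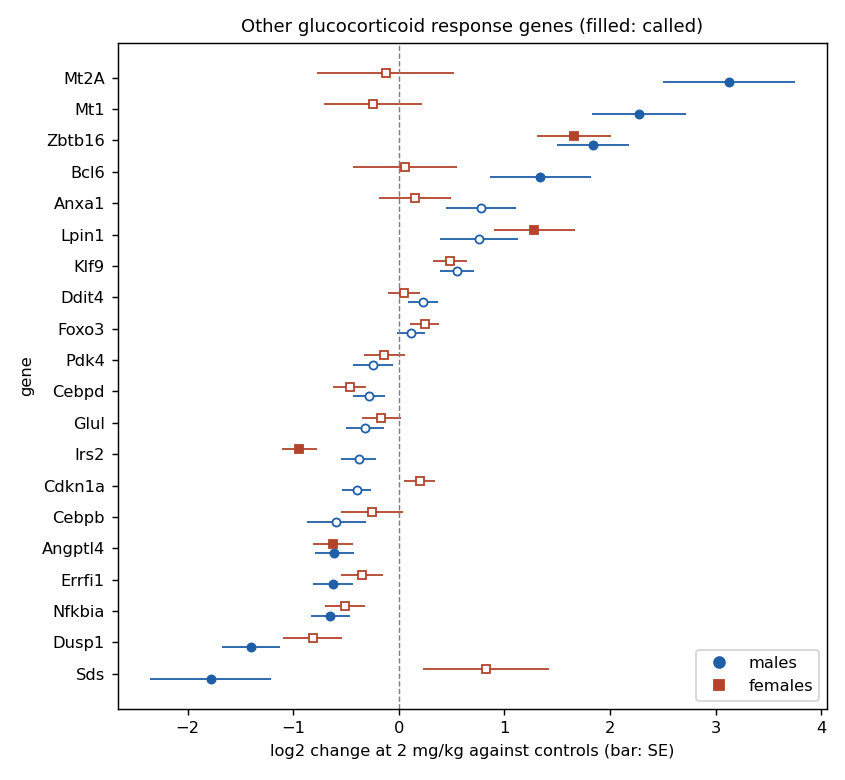
Log2 change at 2 mg/kg against controls of the same sex for 20 other glucocorticoid response genes, males as circles and females as squares, with SE as bars and called genes filled. In males 4 genes were called higher and 5 lower, and Zbtb16 was called higher in both sexes.

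Of 17 other gluconeogenesis genes 14 were tested. In males at 2 mg/kg 0 were called higher and 3 lower, against 2.67 and 2.4% of all probes, with a median log2 change of -0.23. They were Sds, which turns serine into pyruvate (-1.78, adjusted p = 0.0214), G6pc1, the catalytic subunit that releases glucose (-0.95, 7.41e-05), and Gpt, alanine aminotransferase (-0.60, 0.00267). In females 1 was called, G6pc1, at -0.65 (adjusted p = 0.023), where 1.4% of probes were. Of 11 fasting and insulin response genes 9 were tested, and in males at 2 mg/kg 1 was called higher and 3 lower, against the same 2.67 and 2.4%. Fgf21, a fasting hormone, was at 1.5 (adjusted p = 0.0141), and Fasn, which makes fatty acids, at -1.67 (0.000311). Females at 2 mg/kg had 0 called higher and 2 lower, Irs2 and G6pc1, against 0.583 and 0.821% of probes. At 0.5 mg/kg in males Fgf21 was the 1 of the 9 called, at 1.85 (0.0495), against 0.362% of probes.

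Of 14 genes of glucocorticoid metabolism and receptor machinery 13 were tested, and in males at 2 mg/kg 1 was called, Akr1d1, a reductase that inactivates steroids, at -0.74 (adjusted p = 0.00113), beside 5.07% of probes. Females had 0 called by limma at that dose, against 1.4%, with 2 at an unadjusted p below 0.05. In controls Akr1d1 was higher in males by 1.19 (6.17e-07), while Srd5a1 and Akr1c14, which also reduce steroids, were lower, at -2.02 (4.49e-10) and -0.71 (3.16e-05), which makes 3 of 13 against 6.42% of probes. Of 12 clock genes 9 were tested. In males at 2 mg/kg Dbp was called higher, at 0.93 (adjusted p = 0.000417), and Per2, Npas2 and Cry1 lower, at -0.76, -0.72 and -0.63 (0.0226, 0.000217 and 0.0164), which makes 4 of 9 against 5.07% of probes. Per2 and Cry1 were also called lower at 0.5 mg/kg, at -1.09 and -0.88 (0.0341 and 0.0302), 2 of 9 against 0.362%.

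Markers of liver cell types were read at 2 mg/kg as well, and only some of them were called. In bulk tissue, fewer cells of a type and less RNA per cell cannot be told apart. Of 5 hepatocyte markers 0 were called in males by limma, with a median log2 change of -0.33, and 0 in females, with -0.03, where 4 and 0 had an unadjusted p below 0.05. Of 4 bile duct markers 3 were measured. Epcam and Krt19 were called higher in males (0.92 and 0.76, adjusted p = 5.79e-05 and 0.0144), where 2.67% of probes were. Epcam was called higher in females (0.60, 0.0258), where 0.583% of probes were. The mean log2 ratio of the bile duct list ran from -1.79 to -0.97 in control males and from -1.31 to -0.02 in males at 2 mg/kg. Of 3 stellate cell markers Lrat was called higher in males (0.90, adjusted p = 0.0215), against 2.67% of probes. Of 3 erythroid markers Hbb was called lower in males (-0.77, 0.0473), against 2.4%. Of 4 Kupffer cell markers 0 were called in males, with a median log2 change of -0.38, and 0 in females, with -0.19, where 1 and 0 had an unadjusted p below 0.05. Of the 2 endothelial and 2 neutrophil markers tested 0 were called in either sex. Calls either way covered 5.07% of probes in males and 1.4% in females. The T cell marker Cd3e was above background on 2 of 48 arrays. The part of these cell types in the changes of Fkbp5, Sgk1, Nr3c1, Tat and Igfbp1 was not tested.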

How the data were processed

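Liver RNA of 49 rats was hybridised to 2-colour Agilent arrays. The deposited scanner files hold median spot and background intensities, processed intensities and a log10 ratio of red (liver) over green (reference), made with Agilent Feature Extraction 10.7.3.1 per the submitters' processing notes; marks of spot quality came from the same files. The authors also deposited a table of log2 ratios normalised in R, with background method and centring not given in the sources used here. In it 47 of its 49 columns were most like an array of their own group but only 7 most like their own array, so it served as an alternative without slide. The array design was annotated on rn4. Probes were named through RefSeq accessions (table of GRCr8, names only), and 18004 of 30367 probes received 15154 symbols.

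Median intensities were background-corrected (normexp, offset 50) and loess-normalised within arrays with limma 3.58.1 in R 4.3.3. Control spots and marked outlier spots (1.10%) were left out and spots of a probe averaged. Tests kept 17661 probes, those marked by the scanner software as clearly brighter than background in the liver channel of 4 or more rats in some group. A linear model over 48 arrays held group and slide (8 slides). The dim male array was under 25% of spots above background in both channels. The number of arrays, 5 or fewer per group, limits the precision. Simulated data with known changes were used to test the fit. Permutations, promoter windows and figures were run in Python 3.11.15 (numpy 2.4.6, pandas 2.3.3, matplotlib 3.10.9).

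The members and lists were chosen with earlier results of these data known. Named genes were the 10 members by their brightest probe, up to 3 called genes of largest change per list and comparison, and the 5 most and 3 least alike genes of Fkbp5 and Sgk1. Epcam, Krt19, Lrat and Hbb were named as called cell type markers. Values of males at 0.12 mg/kg, and of Fkbp5 and Sgk1 wherever control males enter, are given without a test.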

Additional observations from a re-analysis of the deposited data

Results flagged for a closer look

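In 7 of 90 groups of a member, 1 rat stood far from the rest by Dixon's test, where chance gives about 4.5. Fkbp5 was high in female control rat 4 (-0.9675) and in male rat 81 at 2 mg/kg (1.313). Sgk1 was high in male rat 84 at 2 mg/kg (0.6682). Hsd11b1 was high in male rat 48 at 0.12 mg/kg (4.604) and in female rat 82 at 2 mg/kg (1.965), and low in male control rat 6 (3.58). Pck1 was low in female rat 42 at 0.12 mg/kg (2.99). All are log2 liver/reference ratios.

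The effect of 2 mg/kg differed between the sexes, by the interaction term, for Hsd11b1 (male minus female log2 difference -1.846, limma adjusted p = 0.0188). That call held in 8 of 13 alternative fits. For Sgk1 the term was -1.402, but it contains the control males whose values helped to pick the gene, so its test is not used. For Sgk1 the male change was -1.37 and the female change 0.03, and for Hsd11b1 they were -0.67 and 1.18.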

How the results depend on the processing

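The 10 member calls reported kept their direction in every alternative and every fit without 1 array, and 4 were called in every alternative: Igfbp1 in each sex at 2 mg/kg, and Hsd11b1 and Igfbp1 between controls. These 4, and Tat in males at 2 mg/kg, were called in every fit without 1 array. The counts that follow leave out Fkbp5 and Sgk1 wherever control males enter, so they cover 8 members there and all 10 in females. The cause of the other shifts was not tested. In males at 0.03 mg/kg (0 called), 0 were called in every alternative and in every fit without 1 array. In males at 0.5 mg/kg (0 called), 0 to 1 were called in the alternatives and 0 without 1 array. In males at 2 mg/kg (3 called), 1 to 4 were called in the alternatives and 2 to 4 without 1 array. In females at 2 mg/kg (2 called), 1 was called without slide on all 49 arrays and with median centring, 3 without a slide term, with slide as a random block, on the authors' table and with array weights, and 1 to 2 without 1 array. Between controls (4 called), 2 to 4 were called in the alternatives and 2 to 4 without 1 array. For the interaction (1 called), 0 to 2 were called in the alternatives and 0 to 2 without 1 array. With animal number within dose as a replicate block, the members called between controls and for the interaction were the same as without it. The correlation within blocks was 0.0213, so the numbers were not treated as pairs. Of the 45 pairs of members, 11 passed without the slide term and 0 without the 2 farthest rats, and the r of Fkbp5 with Tdo2 turned from 0.50 to -0.0056 without the slide term. Calls over all probes ranged in the alternatives from 0 to 4 in males at 0.03 mg/kg (0 in the reported fit), 0 to 100 at 0.5 mg/kg (64) and 392 to 1634 at 2 mg/kg (895). In females they ranged from 0 to 15 at 0.03 mg/kg (3), 0 to 28 at 0.12 mg/kg (2), 0 to 293 at 0.5 mg/kg (5) and 116 to 509 at 2 mg/kg (248). Between controls the range was 532 to 1587 (1134) and for the interaction 2 to 346 (192). Leaving out 1 array also moved these counts: for the interaction from 40 without male rat 87 to 564 without male rat 86, in males at 2 mg/kg from 552 without rat 87 to 1328 without rat 86, and at 0.5 mg/kg from 19 without control rat 5 to 85 without control rat 6. In females they ran at 0.5 mg/kg from 1 without control rat 7 to 144 without control rat 11 (141 without rat 68), at 2 mg/kg from 100 without control rat 2 to 350 without control rat 11, at 0.12 mg/kg from 0 to 8, at 0.03 mg/kg from 0 to 5, and between controls from 1048 to 1169. Dim arrays limit what can be measured: Nr3c1's dimmer probe was above background in the liver channel in 2 of 5 males at 2 mg/kg.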

Other observations

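The male 0.03 mg/kg array left out of the fits (rat 26) had log2 ratios of 0.03 for Fkbp5, -0.03 for Sgk1, 0.17 for Tsc22d3, 0.09 for Nr3c1, 0.10 for Tat, -0.10 for Igfbp1 and 0.29 for Serpina6, with the liver signal of these probes not well above background. Hsd11b1, Tdo2 and Pck1 were above background there, at 1.85, 1.23 and 0.79.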
